A study of Mus musculus with 10 samples.

Results

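PDGFRα cells are interstitial cells of the gut wall that carry platelet-derived growth factor receptor α, and here those of the colonic muscle were set beside the whole colonic smooth muscle (SM) tissue that contains them. The comparison rests on 1 RNA-seq library a side, so no spread between replicates could be measured and no test was made. Its members were the genes with a level of at least 1 FPKM (fragments per kilobase of transcript, scaled to the mapped fragments of the library, a length-corrected level) in either library. They numbered 12990 of the 17757 gene symbols in the colonic table, and the series as a whole held 19214 symbols in 10 libraries. The measure was the log2 ratio of FPKM + 1, cells over tissue, and a gene is called 4-fold higher or lower where this ratio reached 2 in size.

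The PDGFRα cells were sorted as primary cells from the colon of mice labelled PdgfraeGFP/+ (B6.129S4-Pdgfratm11(EGFP)Sor/J), in which a green fluorescent protein is inserted in 1 allele of Pdgfra itself. The SM tissue held unsorted mixed cells from the colon of mice labelled KitcopGFP/+ (B6.129S7-Kittm1Rosay/J). The KitcopGFP/+ line carries a reporter in the gene for the receptor of interstitial cells of Cajal (ICC). All were on a C57BL/6 background at an age of 4 weeks. The library of sorted cells and that of tissue therefore differed in mouse line, in dispersal and sorting, and in cell mixture, and these cannot be told apart. The study's methods describe pooled animals for sorted smooth muscle cells (SMCs) and another line, smMHC Cre-eGFP/+, for muscle tissue and the SMCs sorted from it. How many mice gave the PDGFRα cells is not given in the sources used here. Colonic SMCs and colonic ICC, with 1 library each in the same table, serve below to place single genes.

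PDGFRα cells lie close to enteric nerve endings in the muscle layers and are coupled to SMCs. Purines released by inhibitory neurons act on their P2Y1 receptors and release calcium from internal stores. This opens small-conductance calcium-activated potassium channels of the SK3 type, and the hyperpolarization spreads to the muscle. Elsewhere in the gut, PDGFRα marks fibroblasts that build matrix and supply signals to neighbouring cells.

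The summed FPKM over all genes was 354511 in the PDGFRα cells and 326912 in SM tissue. In the PDGFRα cells 11364 genes reached 1 FPKM, against 12676 genes in the tissue. The study reports a range of read numbers for libraries that include colonic SM tissue, but the sources used here give none for the PDGFRα cells. No read counts were used here, so the counting error of each level is unknown. Unsorted tissue is a mixture, and for every gene below fewer cells of a type and less RNA per cell cannot be told apart. Since the sort selected cells by a reporter in Pdgfra, the level of that gene checks the label and is no finding.

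Most genes lay close to the tissue level. 9499 genes (73.1% of those compared) differed by no more than 2-fold, and the median log2 ratio over all genes compared was -0.11, with quartiles at -0.70 and 0.40. Genes 4-fold higher in PDGFRα cells numbered 270, or 2.08% of those compared, and genes 4-fold lower numbered 803, or 6.18%. Each count of listed genes below is to be read beside these shares. Of the 270 higher genes, 249 reached 10 FPKM in either library and 96 reached 100 FPKM. Of the 803 lower genes, 539 reached 10 FPKM and 63 reached 100 FPKM. The lower side thus held more genes, and the higher side held more genes at 100 FPKM or above.

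**Figure D1:**
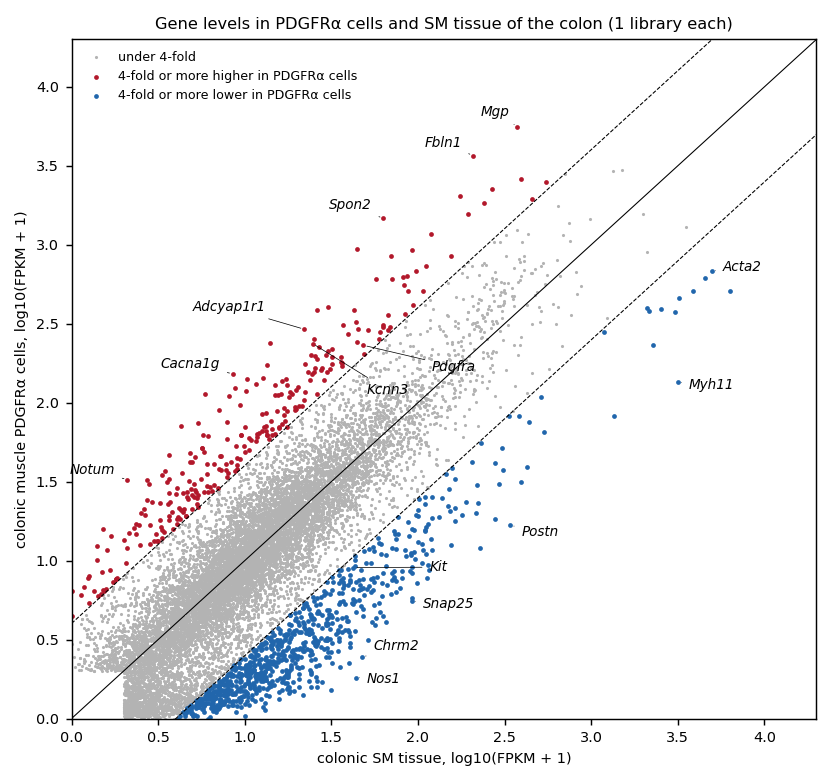
Level of each of the 12990 genes in colonic muscle PDGFRα cells (vertical axis) and in colonic SM tissue (horizontal axis), both as log10(FPKM + 1), 1 library each. The solid line marks equal levels and the dashed lines a 4-fold difference of FPKM + 1; 270 genes lie on or above the upper dashed line and 803 on or below the lower one.

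The label of the sorted library was checked first. Pdgfra (mm9 chr5:75548316-75594229, plus strand) stood at 229.9 FPKM in PDGFRα cells, 47.4 FPKM in SM tissue, 42.2 FPKM in ICC and 1.99 FPKM in SMCs. Kcnn3 (chr3:89324086-89471683, plus strand), which encodes the SK3 channel, stood at 236 FPKM in PDGFRα cells and 23.6 FPKM in the tissue. Cacna1g (chr11:94269705-94335414, minus strand) encodes the Cav3.1 subunit of T-type calcium channels, and its levels were 151 FPKM in PDGFRα cells and 7.55 FPKM in the tissue. The log2 ratios of these defining genes were 2.25, 3.27 and 4.15, all past 4-fold, and each was highest in the PDGFRα cells among the 4 colonic libraries. Of 13 genes listed for PDGFRα cells of the gut, 6 were 4-fold higher (46.2%) and 2 were 4-fold lower (15.4%), beside 2.08% and 6.18% of all genes. The lower ones were Fgfr2 and Dpp4, although neither was 4-fold lower over annotated isoforms alone (-1.99 and -1.44). The list was chosen with results of these libraries known, so its count is no independent support for the label.

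The markers named here for SMCs, ICC, nerves, glia, vessels, mesothelium and macrophages were below their tissue levels in the sorted library. The SMC marker Myh11 stood at 134 FPKM in PDGFRα cells and 3168 FPKM in SM tissue, and over the 5 SMC markers the cells held between 4.23% and 13.6% of the tissue level. The ICC markers Kit and Ano1 stood at 19.4% and 9.34% of the tissue level. Neuronal Uchl1, Snap25 and Elavl4 lay between 2.92% and 12.7%, glial S100b and Sox10 between 13.1% and 15.4%, endothelial Pecam1, Cdh5 and Kdr between 9.04% and 14.7%, and mesothelial Upk3b, Msln and Lrrn4 between 4.70% and 11.5%. Macrophage markers spanned 10.2% for Mrc1 to 90.05% for Cd14. Of these markers, the adipocyte marker Plin1 was listed at 0 in the sorted cells, and no other was. Abundant SMC transcripts such as Actg2 (508 FPKM in PDGFRα cells) thus remained measurable in the sorted library, and their source was not tested. Pericyte genes were not lower as a set. Of 10 compared, 6 lay above the tissue level and 4 below it. Of the same 10 genes, 1 (10%) was 4-fold higher and 1 (10%) 4-fold lower, and the median log2 ratio was 0.28.

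**Figure D2:**
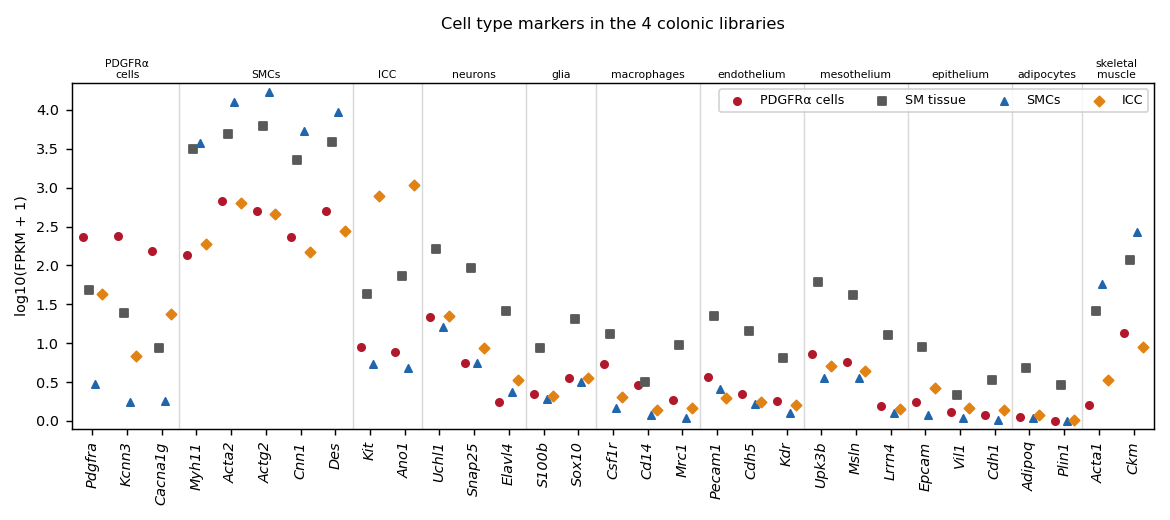
Levels of cell type markers, as log10(FPKM + 1), in the 4 colonic libraries (PDGFRα cells, SM tissue, SMCs and ICC; 1 library each). Pdgfra, Kcnn3 and Cacna1g are highest in PDGFRα cells, whereas markers of SMCs, ICC, neurons, glia, endothelium and mesothelium lie below their SM tissue level in the same cells.

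Transcript forms of the defining genes were read from the isoform rows. Pdgfra had 3 isoforms, and the annotated form of 6553 bases held 66.3% of the gene's FPKM in PDGFRα cells and 65.2% in SM tissue. Kcnn3 had 5 isoforms, all above 0 in PDGFRα cells and 2 above 0 in the tissue. The annotated form of 11450 bases stood at 103.7 FPKM in PDGFRα cells and 19.1 FPKM in the tissue. Forms with new junctions of 9224 and 8785 bases stood at 35.1 and 12.6 FPKM in PDGFRα cells and were listed at 0 in the tissue. The shares of the Pdgfra forms were therefore alike in both libraries, and Kcnn3 was listed with more forms in the cells. Fragments are divided among overlapping isoforms by a statistical model, so a single isoform is less certain than the sum over its gene.

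Few purine signalling genes were past 4-fold, on either side. The list of purinergic receptors and ATP-handling enzymes held 36 genes, of which 29 reached 1 FPKM in either library. Of these 29 genes, 2 were 4-fold higher (6.90%, beside 2.08% of all genes) and 3 were 4-fold lower (10.3%, beside 6.18%), with a median log2 ratio of 0.46 beside -0.11 for all genes compared. P2ry1 (chr3:60806717-60812901, plus strand), the receptor for ADP and related purines on these cells, stood at 111 FPKM in PDGFRα cells and 14.6 FPKM in SM tissue, a log2 ratio of 2.84. Adora1, the adenosine A1 receptor, stood at 46.9 FPKM in PDGFRα cells and 3.84 FPKM in the tissue (log2 ratio 3.31). Both receptors were lower in the other sorted cells, with P2ry1 at 7.04 FPKM in SMCs and 5.14 FPKM in ICC.

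The purine genes past 4-fold on the lower side were Nt5e, whose product makes adenosine from AMP, the ion channel receptor P2rx2 and the nucleotidase Entpd3. Nt5e stood at 1.11 FPKM in PDGFRα cells and 19.1 FPKM in SM tissue, and P2rx2 at 1.47 FPKM in PDGFRα cells and 19.99 FPKM in the tissue. Other members that handle purines lay above the tissue level without reaching 4-fold. Among these, Adk, adenosine kinase, stood at 95.5 FPKM in PDGFRα cells and 24.9 FPKM in the tissue, and its form of 1825 bases alone stood at 62.8 FPKM in the cells and 7.62 FPKM in the tissue. Enpp1, an ectoenzyme that cleaves ATP, stood at 65.4 FPKM in PDGFRα cells and 25.7 FPKM in the tissue.

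Receptors for transmitters and hormones divided into a small higher and a larger lower set. Of 55 receptor genes compared, 9 (16.4%) were 4-fold higher and 19 (34.5%) were 4-fold lower in PDGFRα cells. Over all genes compared the shares were 2.08% and 6.18%. The median log2 ratio of the receptor genes was -1.20. Among receptor genes at 10 FPKM or more in either library the median was 0.09. The highest ratio belonged to Adcyap1r1 (chr6:55401972-55451445, plus strand), the PAC1 receptor for the neuropeptide PACAP, at 291 FPKM in PDGFRα cells and 21.1 FPKM in SM tissue. Adra2b and Adra1a, which encode receptors for noradrenaline, stood at 31.5 and 30.4 FPKM in PDGFRα cells and at 1.73 and 2.56 FPKM in the tissue. The Adra1a ratio of 3.14 fell to 0.71 when annotated isoforms alone were summed, so that call rests on forms with new junctions. Both adrenergic genes were low in SMCs and ICC, with Adra2b at 0.105 FPKM in SMCs and 0.499 FPKM in ICC.

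Protease, sphingolipid, peptide and prostacyclin receptors made up the rest of the higher set. F2r, the thrombin receptor PAR1, stood at 251 FPKM in PDGFRα cells and 24.2 FPKM in SM tissue, a log2 ratio of 3.32. The related F2rl1 stood at 12.3 FPKM in PDGFRα cells and 2.13 FPKM in the tissue. S1pr3 and S1pr2, receptors of sphingosine 1-phosphate, had log2 ratios of 2.39 and 2.08, and Ptgir, the prostacyclin receptor, one of 2.12. Ramp1, a partner protein of the receptor for calcitonin gene-related peptide, stood at 138 FPKM in PDGFRα cells and 27.6 FPKM in the tissue. Its receptor partner Calcrl stood at 44.2 FPKM in the cells and 15.9 FPKM in the tissue, a log2 ratio of 1.42, short of 4-fold. Over annotated isoforms alone the ratios of S1pr3, S1pr2 and Ramp1 were 1.55, 1.88 and 1.77, all under 4-fold.

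The lower set included receptors through which nerves and peptides act on muscle. Chrm2, the M2 muscarinic receptor, stood at 1.44 FPKM in PDGFRα cells, 46.7 FPKM in SM tissue and 61.2 FPKM in SMCs. Chrm3, the M3 receptor, stood at 0.502 FPKM in PDGFRα cells and 5.75 FPKM in the tissue, and over annotated isoforms alone its ratio of -2.17 became -1.66. The tachykinin receptors Tacr1 and Tacr2 had log2 ratios of -2.99 and -3.24, and the cholecystokinin receptor Cckar one of -3.15. Cnr1, the CB1 cannabinoid receptor, and Htr3a, a serotonin-gated channel, are also carried by enteric neurons and stood at 2.57% and 6.21% of the tissue level.

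**Figure D3:**
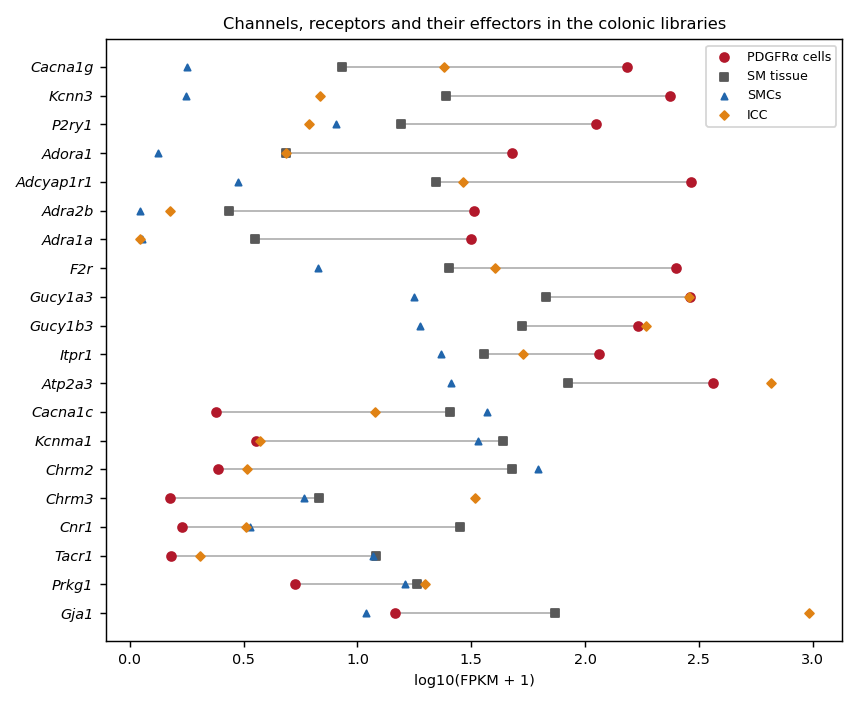
Levels of 20 channel, receptor and effector genes, as log10(FPKM + 1), in PDGFRα cells, SM tissue, SMCs and ICC of the colon (1 library each); grey lines join PDGFRα cells and SM tissue. Genes from Cacna1g down to Atp2a3 are higher in PDGFRα cells than in SM tissue, and those from Cacna1c down to Gja1 are lower.

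Ion channels followed the same division. Of 43 potassium channel genes compared, 3 (6.98%) were 4-fold higher and 12 (27.9%) were 4-fold lower, beside 2.08% and 6.18% of all genes. Their median log2 ratio was -1.45, which was 0.08 among those at 10 FPKM or more in either library. Beside Kcnn3, the higher genes were Kcng4, a modifying subunit of voltage-gated channels, and Kcnk2, which encodes the background channel TREK-1. Kcng4 stood at 60.5 FPKM in PDGFRα cells and 5.12 FPKM in SM tissue, and Kcnk2 at 36.7 FPKM in the cells and 6.08 FPKM in the tissue. Both were also present in ICC, at 25.7 and 23.03 FPKM, whereas Kcnn3 stood at 5.86 FPKM there. Among the lower genes was Kcnma1, the large-conductance calcium-activated channel of muscle, at 2.57 FPKM in PDGFRα cells and 42.5 FPKM in the tissue. Kcnn2, of the same small-conductance family as Kcnn3, stood at 2.16 FPKM in PDGFRα cells and 8.27 FPKM in the tissue. Kcnj8 and Abcc9, the subunits of a potassium channel gated by ATP, stood at 44.6 and 111 FPKM in PDGFRα cells and at 42.1 and 74.02 FPKM in the tissue, both within 2-fold.

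Of 45 genes for calcium entry, release and clearance, 4 (8.89%) were 4-fold higher and 16 (35.6%) were 4-fold lower. Over all genes the shares were 2.08% and 6.18%. The median of the calcium genes was -0.76. Voltage-gated channel genes lay on both sides. Cacna1g and Cacna1d, an L-type subunit, were higher, the second at 52.5 FPKM in PDGFRα cells and 8.88 FPKM in SM tissue. Cacna1c, the main L-type subunit of muscle, stood at 1.4 FPKM in PDGFRα cells and 24.6 FPKM in the tissue. Cacna1h, the T-type subunit Cav3.2, stood at 4.28 FPKM in PDGFRα cells and 36.9 FPKM in the tissue. Store proteins also differed by gene. Atp2a3, the pump SERCA3, stood at 365 FPKM in PDGFRα cells and 82.7 FPKM in the tissue, and reached 658 FPKM in ICC. The pump regulators went in opposite directions, with sarcolipin (Sln) at 18.997 FPKM in PDGFRα cells and 1.52 FPKM in the tissue, and phospholamban (Pln) at 4.79 FPKM in the cells and 90.8 FPKM in the tissue. Among release channels, Itpr1, an inositol trisphosphate receptor, stood at 114 FPKM in PDGFRα cells and 34.95 FPKM in the tissue, under 4-fold, whereas the ryanodine receptors Ryr2 and Ryr3 were 4-fold lower at 0.877 and 0.665 FPKM in the cells against 12.9 and 10.2 FPKM in the tissue.

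Nitric oxide acts on soluble guanylate cyclase to make cyclic GMP. The subunit genes Gucy1a3 and Gucy1b3 stood at 289 and 169.6 FPKM in PDGFRα cells, at 66.1 and 51.9 FPKM in SM tissue and at 285 and 184 FPKM in ICC. The PDGFRα cells and ICC were thus close for both subunits. Downstream genes lay below the tissue level without reaching 4-fold. Prkg1, the cyclic GMP-dependent kinase, stood at 4.29 FPKM in PDGFRα cells and 17.3 FPKM in the tissue, and Mrvi1, its partner at the calcium store, at 20.95 FPKM in the cells and 74.9 FPKM in the tissue. Of the 14 genes of the pathway compared, 1 (7.14%, beside 2.08% of all genes) was 4-fold higher, Gucy1a3. On the lower side 1 (7.14%, close to the 6.18% of all genes) was past 4-fold, neuronal nitric oxide synthase (Nos1). Nos1 had the lowest ratio of all genes at 10 FPKM or more. Connexin genes encode gap junction proteins. Of 7 compared, 1 (14.3%) was 4-fold higher and 2 (28.6%) were 4-fold lower, beside 2.08% and 6.18% of all genes. Their median log2 ratio was -1.28, which was 0.73 among those at 10 FPKM or more in either library. Gja1 (connexin 43) was on the lower side, at 13.7 FPKM in PDGFRα cells and 72.9 FPKM in the tissue, and stood at 962 FPKM in ICC. Gjc1 (connexin 45) stood at 44.8 FPKM in the cells and 26.5 FPKM in the tissue.

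The 15 most abundant genes of the PDGFRα cells held 10.6% of all FPKM in the cells and 2.77% in SM tissue. Mgp, matrix Gla protein, an inhibitor of calcification, came first with 5598 FPKM in PDGFRα cells and 373 FPKM in the tissue. Fbln1 (chr15:85036379-85116965, plus strand), fibulin-1 of elastic fibres and basement membranes, came next with 3666 FPKM in the cells and 207 FPKM in the tissue. The others in order were Col3a1, Sparc, Col1a1, Gsn, Dcn, Dpt, Serping1, Igfbp7, Bgn, Col1a2, Lum, Eef1a1 and Spon2. Eef1a1, a translation factor of all cells, was the sole gene of these 15 that lay below the tissue, at 1568 FPKM in PDGFRα cells and 1979 FPKM in SM tissue. Among the same 15 genes, Col3a1 and Col1a2 had log2 ratios of 0.98 and 1.45, whereas Dpt (dermatopontin) and Lum (lumican) had ratios of 3.08 and 3.01. Col1a1, of type I collagen, just missed 4-fold with a ratio of 1.99, as did Col6a3, of type VI collagen, with 2.00. Past the threshold by little, the laminin chain gene Lamb1 and Ltbp3, a binding protein of latent TGF-β, had ratios of 2.22 and 2.07.

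Of 67 matrix glycoprotein and proteoglycan genes compared, 22 were 4-fold higher (32.8%) and 5 were 4-fold lower (7.46%), beside 2.08% and 6.18% over all genes. The median log2 ratio was 0.87, and 39 of the 67 genes (58.2%) had their highest colonic level in the PDGFRα cells, as did 20.7% of all genes compared. Spon2 (chr5:33556167-33560887, minus strand), spondin 2, had the highest log2 ratio of any gene at 10 FPKM or more, 4.54, with 1467 FPKM in PDGFRα cells and 62.1 FPKM in SM tissue. Basement membrane laminins were divided by chain. Lama1, Lama2 and Lamb1 had log2 ratios of 3.79, 2.58 and 2.22, whereas Lama5 was 4-fold lower at 3.48 FPKM in PDGFRα cells and 47.1 FPKM in the tissue. Small leucine-rich proteoglycans divided as well, with Dcn, Bgn, Lum and Podn 4-fold higher and Ogn (osteoglycin) at 29.1 FPKM in the cells and 219 FPKM in the tissue. The matricellular gene Postn (periostin) was the lowest of the list, at 15.7 FPKM in PDGFRα cells, 340.5 FPKM in SM tissue and 529.8 FPKM in SMCs. Thbs2, of the thrombospondin family, stood at 602 FPKM in PDGFRα cells and 55.9 FPKM in the tissue.

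Collagen chains showed a narrower pattern. Of 34 compared, 3 (8.82%) were 4-fold higher and 4 (11.8%) were 4-fold lower, beside 2.08% and 6.18% of all genes. The median of the collagens was 0.81. The higher genes were Col5a3, a minor chain of type V collagen, at 212 FPKM in PDGFRα cells and 29.2 FPKM in SM tissue, and the less abundant Col6a5 and Col17a1. Col12a1 was the most abundant of the lower genes, at 10.8 FPKM in the cells and 73.8 FPKM in the tissue. Genes for the cleavage of procollagen lay on both sides. Pcolce, an enhancer of procollagen cleavage, stood at 677 FPKM in PDGFRα cells and 95.96 FPKM in SM tissue, and the procollagen proteinase gene Bmp1 at 162 FPKM in the cells and 30.2 FPKM in the tissue, although the ratio of Bmp1 was 0.53 over annotated isoforms alone. The procollagen proteinase gene Adamts2 stood at 6.46 FPKM in the cells and 13.04 FPKM in the tissue. Proteases and their inhibitors numbered 42 genes compared, of which 12 (28.6%) were 4-fold higher and 7 (16.7%) were 4-fold lower. Mmp2, a gelatinase, stood at 622 FPKM in PDGFRα cells and 81.5 FPKM in the tissue. Serpine2 and Serping1, inhibitors of serine proteases, stood at 633 and 2035 FPKM in the cells and at 85.5 and 173 FPKM in the tissue. Cpe, a carboxypeptidase that processes peptide hormones, was on the lower side at 64.2 FPKM in the cells and 533 FPKM in the tissue.

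**Figure D4:**
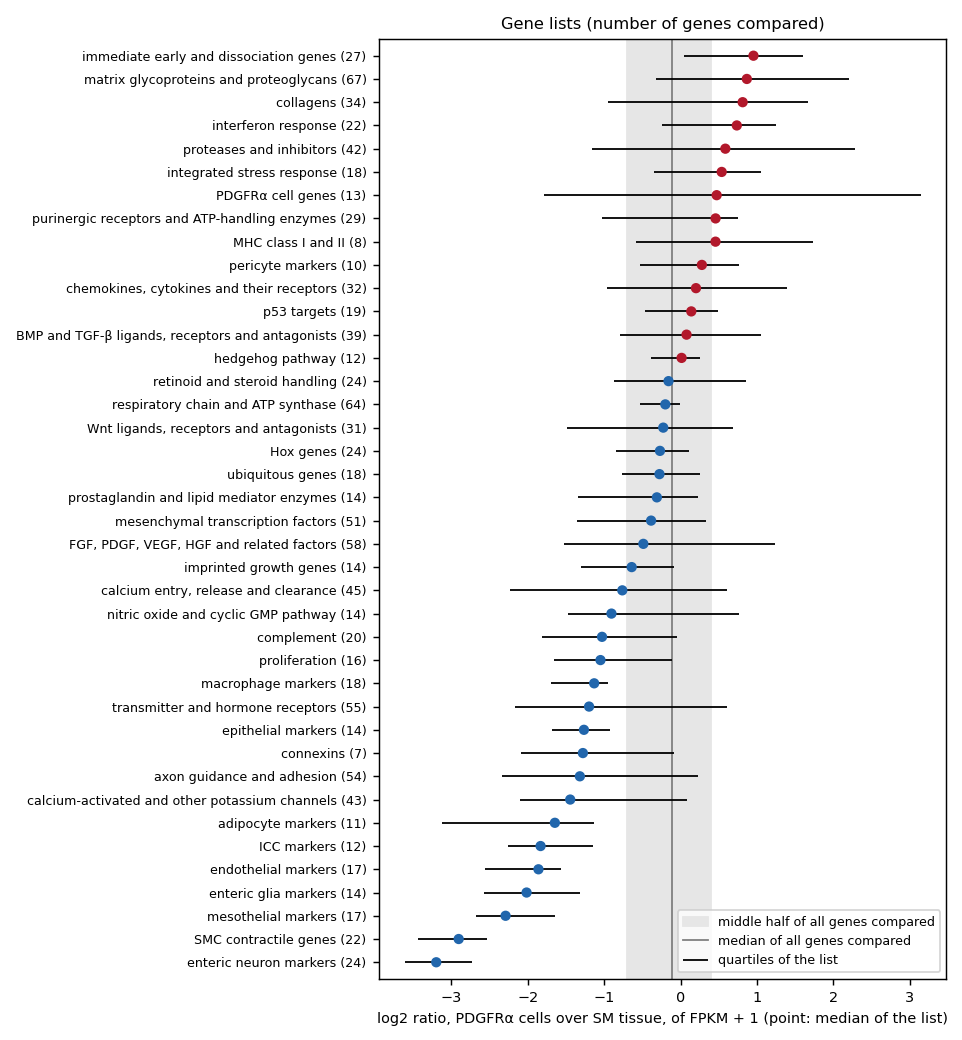
Median (points, red above 0 and blue below) and quartiles (black lines) of the log2 ratio of FPKM + 1, colonic PDGFRα cells over SM tissue, for each gene list with 7 or more genes compared, whose number stands in brackets. The grey band and line give the quartiles and the median of all 12990 genes; matrix lists lie to the right and lists of SMC, neuron, mesothelium and glia markers to the left.

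Growth factors and their binding proteins contributed single genes at high levels. Of 58 genes for fibroblast, platelet-derived, vascular and related growth factors compared, 7 (12.1%) were 4-fold higher and 9 (15.5%) were 4-fold lower. Over all genes the shares were 2.08% and 6.18%. Igfbp3, a carrier of insulin-like growth factors, stood at 387 FPKM in PDGFRα cells and 25.3 FPKM in SM tissue. Mdk and Angptl2, both secreted, had log2 ratios of 2.99 and 2.72. Kitl, the ligand of Kit on ICC, stood at 159.7 FPKM in PDGFRα cells and 59.7 FPKM in the tissue, short of 4-fold. The lower side included Gdnf, a trophic factor of enteric neurons, at 0.816 FPKM in the cells and 11.8 FPKM in the tissue. It also held the receptor gene Fgfr2, at 3.42 FPKM in the cells and 29.8 FPKM in the tissue, whereas Fgfr1 stood at 248 FPKM in the cells and 63.4 FPKM in the tissue.

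Antagonists of the Wnt and BMP pathways were split between the sides. In the Wnt list of 31 genes compared, 2 (6.45%) were 4-fold higher and 4 (12.9%) were 4-fold lower. Over all genes the shares were 2.08% and 6.18%. The median of the Wnt list was -0.23, which was 0.50 among those at 10 FPKM or more. The higher genes were Notum, an enzyme that inactivates Wnt proteins, at 31.6 FPKM in PDGFRα cells and 1.1 FPKM in SM tissue, and the secreted antagonist Sfrp1, at 321 FPKM in the cells and 42.7 FPKM in the tissue. The log2 ratio of Notum was 3.95 over all isoforms and 1.95 over annotated ones. Sfrp2, Sfrp5 and the Wnt enhancers Rspo1 and Rspo3 were 4-fold lower, with Rspo3 at 0.552 FPKM in the cells and 6.997 FPKM in the tissue and Rspo1 at a ratio of -1.53 over annotated isoforms alone. In the BMP and TGF-β list of 39 genes compared, 7 (17.9%) were 4-fold higher and 6 (15.4%) were 4-fold lower. The BMP antagonists Grem1, Fst and Chrdl1 were 4-fold lower, Grem1 with 2.15 FPKM in PDGFRα cells and 50.7 FPKM in the tissue. The antagonist Chrd went the other way, at 45.1 FPKM in the cells and 6.27 FPKM in the tissue. Ligands among the higher genes were Bmp2 (1.49 over annotated isoforms alone), Bmp6 and Gdf10, the last at 356 FPKM in the cells, 66.5 FPKM in the tissue and 934 FPKM in ICC.

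Among 32 chemokine and cytokine genes compared, 3 were 4-fold higher (9.38%, beside 2.08% of all genes) and 2 were 4-fold lower (6.25%, close to the 6.18% of all genes). Ccl11, the eosinophil attractant eotaxin, stood at 141 FPKM in PDGFRα cells, 16.2 FPKM in SM tissue, 0.679 FPKM in SMCs and 1.7 FPKM in ICC. Cxcl12 stood at 286 FPKM in PDGFRα cells and 50.3 FPKM in the tissue, and Tslp, an alarm cytokine, at 15.1 FPKM in the cells and 1.29 FPKM in the tissue. Of 20 complement genes compared, 15 lay below the tissue level, 3 of them 4-fold (15%), and 2 were 4-fold higher (10%). The median log2 ratio of the complement genes was -1.03. The early components C1ra and C1s stood at 94.6 and 140.3 FPKM in PDGFRα cells and at 19.7 and 49.6 FPKM in the tissue, with C1ra at a ratio of 1.85 over annotated isoforms alone, whereas C3 stood at 50.5 FPKM in the cells and 304 FPKM in the tissue.

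Single enzyme genes of lipid and steroid handling were among the 25 highest ratios. At the settings used here, the lists that hold such enzymes were near the median of all genes. Ces1d (chr8:95689967-95721737, minus strand), a carboxylesterase that hydrolyses lipid esters, stood at 942 FPKM in PDGFRα cells, 43.3 FPKM in SM tissue, 1.02 FPKM in SMCs and 4.05 FPKM in ICC. It belongs to a cluster of closely related genes, and fragments shared between copies make its level uncertain. Hsd11b1 (chr1:195047824-195090248, minus strand), which regenerates active glucocorticoid, stood at 113 FPKM in the cells and 4.9 FPKM in the tissue. Pla1a and Pla2g7, phospholipases, stood at 109.8 and 171 FPKM in PDGFRα cells and at 7.08 and 12.4 FPKM in the tissue. In the retinoid and steroid list of 24 genes compared, 3 (12.5%) were 4-fold higher and 2 (8.33%) were 4-fold lower. Over all genes the shares were 2.08% and 6.18%. The median log2 ratio of this list was -0.16, which was 0.72 among those at 10 FPKM or more in either library and 0.13 under median ratio scaling. In the list of 14 prostaglandin and lipid mediator enzymes compared, 1 was 4-fold higher (Pla1a, 7.14%) and 1 was 4-fold lower (Ptgs1, 7.14%). The median of this list was -0.31, which became -1.10 after rescaling to TPM. Retinoic acid synthesis was divided between enzymes, with Aldh1a3 at 69.03 FPKM in the cells and 8.97 FPKM in the tissue, and Aldh1a2 at 6.54 FPKM in the cells and 34.8 FPKM in the tissue. Of the adipocyte markers, Pparg and Lpl were 4-fold higher, Pparg with 41.4 FPKM in PDGFRα cells and 3.94 FPKM in the tissue, with a ratio of 1.83 for Pparg over annotated isoforms alone. Adipoq, Cfd, Cd36, Car3 and Plin4 were 4-fold lower.

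Other genes of the 25 with the highest ratios were of mixed roles. Sod3, extracellular superoxide dismutase, stood at 401 FPKM in PDGFRα cells and 29.2 FPKM in SM tissue. Lgals3bp, a secreted glycoprotein, stood at 846 FPKM in the cells and 68.9 FPKM in the tissue. Cox6b2 and Cox8b, tissue-restricted subunits of cytochrome c oxidase, had log2 ratios of 3.54 and 3.49. However, the 64 genes of the respiratory chain and ATP synthase had a median of -0.20 with 1 gene 4-fold higher (1.56%, beside 2.08% of all genes). That gene was Atp5j, and the excess lay in 1 form of 541 bases, which stood at 703.9 FPKM in PDGFRα cells and 19.4 FPKM in the tissue, while its annotated form stood at 119.2 FPKM in the cells and 83.2 FPKM in the tissue. Abcc3, an efflux transporter, had a log2 ratio of 3.67 and lies 15.4 kb from Cacna1g on the same strand of chromosome 11 in mm9. Fam65c and Tmem204 had ratios of 3.66 and 3.48.

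Of 51 mesenchymal transcription factor genes compared, 3 (5.88%) were 4-fold higher and 11 (21.6%) were 4-fold lower, beside 2.08% and 6.18% of all genes. Hic1 stood at 95.7 FPKM in PDGFRα cells and 8.43 FPKM in SM tissue, and Snai1 at 22.2 FPKM in the cells and 2.23 FPKM in the tissue. Tcf21, a basic helix-loop-helix factor of mesenchymal precursors, stood at 386 FPKM in PDGFRα cells and 41.5 FPKM in the tissue, and at 384 FPKM in ICC, so it did not set these sorted cells apart from each other. Foxf2, a gut mesenchymal factor, was lower, at 2.89 FPKM in the cells and 28.4 FPKM in the tissue, whereas its relative Foxf1a stood at 39.6 FPKM in the cells and 52.05 FPKM in the tissue. None of the 24 Hox genes compared was 4-fold higher or lower.

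Genes of the contractile apparatus were among the 63 lower genes at 100 FPKM or more, which also held others such as Postn and Stmn2. All 22 SMC contractile genes were compared, and 20 of them were 4-fold lower in PDGFRα cells (90.9%, beside 6.18% of all genes). None was 4-fold higher, and the median log2 ratio was -2.91. Summed over the list they held 1.44% of all FPKM in PDGFRα cells and 12.7% in SM tissue. Mylk, myosin light chain kinase, stood at 81.1 FPKM in the cells and 1360.1 FPKM in the tissue, the log2 ratio of Mylk being -4.05 over all isoforms and -1.25 over annotated ones. Tagln, the actin-binding protein SM22, stood at 615 FPKM in the cells and 4515 FPKM in the tissue. Myocd, the coactivator of contractile genes, stood at 0.714 FPKM in the cells and 17.99 FPKM in the tissue. The 2 genes short of 4-fold were smoothelin (Smtn), at 163 FPKM in the cells and 572 FPKM in the tissue, and cardiac troponin T (Tnnt2), at 1.55 FPKM in the cells and 3.2 FPKM in the tissue.

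Shared muscle genes also differed in the form that was listed. Of the caldesmon gene Cald1, the annotated form of 4035 bases held 72.6% of the gene's FPKM in PDGFRα cells and 34.3% in SM tissue, and the longest form, of 5262 bases, held 11.8% in the cells and 65.7% in the tissue. Of the tropomyosin gene Tpm1, 1 annotated form held 72.4% of the FPKM in PDGFRα cells and 97.8% in the tissue. A second annotated form of 1702 bases stood at 53.9 FPKM in PDGFRα cells and was listed at 0 in the tissue, and another of 1675 bases stood at 31.1 FPKM in the cells and 0.729 FPKM in the tissue. The SMC library resembled the tissue, with 63.0% of Cald1 in its longest form and 96.9% of Tpm1 in its leading one. The ICC library resembled the PDGFRα cells, with 62.3% of Cald1 in the 4035-base form, 14.7% in the longest form and 77.1% of Tpm1 in its leading one.

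**Figure D5:**
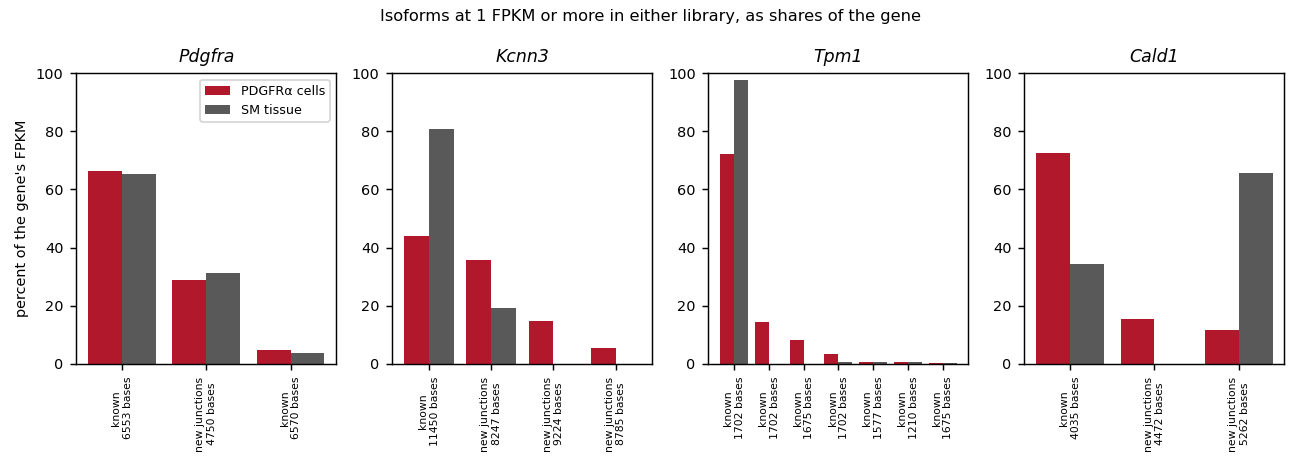
Share of each gene's FPKM held by its isoforms in colonic PDGFRα cells (left bars) and SM tissue (right bars), 1 library each, for isoforms of Pdgfra, Kcnn3, Tpm1 and Cald1 at 1 FPKM or more in either; labels give known (annotated) forms or forms with new junctions and their length in bases. Pdgfra has like shares in both, whereas the leading Cald1 form differs.

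Serum response factor binds a CArG box, CC followed by 6 letters of A or T and then GG, in the promoters of many contractile genes. RefSeq start windows of build GRCm38.p6 (250 bases before to 50 after a gene's start, both strands covered because the pattern is its own reverse complement) were searched for it, and 9232 of the 12990 genes had a window. A CArG box stood in a window of 1 of the 168 genes with one that were 4-fold higher (0.595%), of 20 of the 546 that were 4-fold lower (3.66%) and of 1.68% of all compared genes with a window. CAGCTG, an E-box letter sequence that is also its own reverse complement and does not overlap the CArG pattern, stood in 55 of the 168 higher genes (32.7%), 139 of the 546 lower genes (25.5%) and 18.5% of all compared genes with a window. It was present in 16.3% of all windows of the table, and the CArG box in 1.63%. These shares are descriptions of letters, and base composition was not matched. Some contractile genes, among them Myh11, Actg2 and Tagln, had no window and are not in the shares. The study's own search allowed a deviating base and covered the whole genome, so its boxes are not the ones counted here. The higher gene with a CArG box was Lama2, at 165 FPKM in PDGFRα cells and 26.8 FPKM in SM tissue. Lower genes with one included Myl9, the regulatory myosin light chain, at 391 FPKM in the cells and 2519 FPKM in the tissue, and Acta1, skeletal actin, at 0.592 FPKM in the cells and 25.3 FPKM in the tissue. The 250 bases before the start of these genes, and of Kcnn3 with neither pattern and Fbln1 with CAGCTG alone, are shown 5′ to 3′ on the gene's strand to set a marker and leading matrix genes beside muscle genes, with CArG boxes and CAGCTG in capitals. Fbln1 had 2 start windows, and the one shown was taken because it holds CAGCTG in these bases.
Kcnn3, chr3:89519914-89520163, plus strand: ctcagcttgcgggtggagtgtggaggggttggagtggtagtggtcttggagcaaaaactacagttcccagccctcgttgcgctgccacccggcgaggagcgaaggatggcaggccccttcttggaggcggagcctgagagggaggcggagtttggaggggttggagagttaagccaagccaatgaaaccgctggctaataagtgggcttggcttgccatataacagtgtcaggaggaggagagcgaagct
Fbln1, chr15:85205758-85206007, plus strand: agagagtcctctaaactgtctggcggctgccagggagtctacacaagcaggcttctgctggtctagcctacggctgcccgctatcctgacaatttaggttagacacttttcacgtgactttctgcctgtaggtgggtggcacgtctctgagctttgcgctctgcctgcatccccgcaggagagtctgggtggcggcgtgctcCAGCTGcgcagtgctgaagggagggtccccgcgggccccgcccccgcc
Lama2, chr10:27616943-27617192, minus strand: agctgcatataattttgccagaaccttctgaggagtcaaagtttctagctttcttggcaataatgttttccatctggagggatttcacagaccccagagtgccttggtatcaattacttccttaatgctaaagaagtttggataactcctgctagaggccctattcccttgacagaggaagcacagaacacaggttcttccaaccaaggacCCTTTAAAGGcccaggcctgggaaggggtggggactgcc
Myl9, chr2:156775214-156775463, plus strand: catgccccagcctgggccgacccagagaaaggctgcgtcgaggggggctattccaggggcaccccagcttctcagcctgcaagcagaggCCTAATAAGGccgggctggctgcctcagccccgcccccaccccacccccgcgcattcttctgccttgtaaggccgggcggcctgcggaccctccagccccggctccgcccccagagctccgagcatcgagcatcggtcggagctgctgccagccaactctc
Acta1, chr8:123894776-123895025, minus strand: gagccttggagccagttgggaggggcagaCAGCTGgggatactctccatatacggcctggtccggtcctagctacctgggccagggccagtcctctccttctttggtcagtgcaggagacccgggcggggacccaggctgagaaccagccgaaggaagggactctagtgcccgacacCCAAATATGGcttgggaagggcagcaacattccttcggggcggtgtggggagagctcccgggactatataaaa
The CArG box began 39 bases before the start in Lama2, 161 bases before it in Myl9 and 73 bases before it in Acta1.

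Nerve and glial genes lay on the lower side. Of 24 enteric neuron genes compared, 20 were 4-fold lower (83.3%) and none was 4-fold higher, beside 6.18% and 2.08% of all genes. Their median log2 ratio was -3.20, the lowest of all lists. Vip and Tac1, which encode transmitter peptides, stood at 7.75 and 10.7 FPKM in PDGFRα cells and at 115 and 119 FPKM in SM tissue. The levels in SMCs were much alike, at 6.31 FPKM for Vip and 7.49 FPKM for Tac1. Of 14 glial genes, 7 were 4-fold lower (50%, median -2.02), and of 17 mesothelial genes 11 were (64.7%, median -2.29). Of 17 endothelial genes 7 were 4-fold lower (41.2%) and 1 was higher (5.88%, beside 2.08% of all genes). The higher one was Eng, at 154 FPKM in PDGFRα cells and 28.999 FPKM in the tissue. Eng encodes endoglin, a coreceptor of TGF-β that mesenchymal cells also carry, and it stood at 112 FPKM in ICC. Macrophage genes had a median of -1.13 with 3 of 18 genes 4-fold lower (16.7%, beside 6.18% of all genes). No lymphocyte or mast cell gene of the 15 with a row reached 1 FPKM in either library.

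Genes that respond within minutes to stimulation and to cell dispersal had the highest median of all lists. Of 27 such genes, 4 were 4-fold higher (14.8%, beside 2.08% of all genes), none was 4-fold lower, and the median log2 ratio was 0.95. Egr1 stood at 237 FPKM in PDGFRα cells, 12.96 FPKM in SM tissue, 57.9 FPKM in SMCs and 122 FPKM in ICC. Fos stood at 141 FPKM in PDGFRα cells, 9.24 FPKM in the tissue, 141 FPKM in SMCs and 248 FPKM in ICC, and Ier2 and Junb had log2 ratios of 3.80 and 3.27. All sorted libraries of the colon thus lay above the tissue for Egr1 and Fos. In the library labelled jejunal PDGFRα cells both genes lay below jejunal tissue, at log2 ratios of -0.26 and -0.88. The part of dispersal in these and other ratios was not tested. The heat shock genes Hsp90aa1 and Hsph1 of the same list lay below the tissue, at 29.2% and 24.8% of its level. Interferon response genes had a median of 0.73 with 1 of 22 genes 4-fold higher (4.55%, beside 2.08% of all genes), Ifi27l2a. The class I genes H2-D1 and H2-K1 stood at log2 ratios of 1.95 and 1.70, although these belong to families of near-identical genes and are uncertain. Proliferation genes had a median of -1.05, which was -0.13 among those at 10 FPKM or more in either library. Among them, Top2a stood at 0.7 FPKM in PDGFRα cells and 8.34 FPKM in the tissue, a ratio of -2.46 that became -1.90 over annotated isoforms.

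The higher genes were also set beside the other sorted cells of the colon. All of these comparisons share the PDGFRα library, in which the higher genes were chosen as high. An excess over the share of all genes is therefore built in and is no separate support. Of the 270 higher genes, 253 were also at least 4-fold above colonic SMCs and 138 above colonic ICC on the FPKM + 1 scale, and 134 (49.6%) passed both, beside 1.56% of all genes compared. In 14 of the 270 genes the ICC level was at or above that of PDGFRα cells, among them Gdf10, Atp2a3 and Cacna1d. None had such a level in SMCs. Over all 17757 genes, Pearson's r of log10(FPKM + 1) was 0.9003 between PDGFRα cells and SM tissue, 0.935 between PDGFRα cells and ICC and 0.889 between PDGFRα cells and SMCs. Each r describes genes within a pair of single libraries, and genes are no replicates.

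The lower genes also fell into kinds by their levels in the other sorted cells. Of the 803 lower genes, 349 stood in SMCs at no less than 50% of the tissue level of FPKM + 1. In 387 genes both SMCs and ICC also lay under 50% of it, as for Vip and Tac1. Nos1, Syt1 and Snap25, genes of neurons, belonged to the second kind, with Nos1 at 1.89 FPKM in SMCs and 3.98 FPKM in ICC beside 42.7 FPKM in the tissue. Myh11, Chrm2, Pgm5, Mylk and Synpo2 belonged to the first, with Pgm5 at 233 FPKM in SMCs beside 227 FPKM in the tissue.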

How the data were processed

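Total RNA was extracted (mirVana) and taken through TruSeq RNA preparation. For its libraries, colonic SM tissue among them, the study describes selection of mRNA on oligo(dT) beads. Strand was not used here to tell overlapping genes apart. Per the labels, the authors aligned reads to mm9 with TopHat 1.4.1 and assembled and quantified isoforms with Cufflinks 2.0.2 and Cuffdiff. The deposited values are FPKM per isoform in 3 tables, each normalized separately, so ratios were taken within the colonic table only. Its 68502 isoform rows are annotated forms or forms that share a junction with one.

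Isoform values under 0.025 FPKM were set to 0 and summed per gene symbol (Python 3.11.15, pandas 2.3.3, numpy 2.4.6). Ratios were log2 of FPKM + 1, and genes under 1 FPKM in both libraries were left out. With 1 library a side there was no test, and the steps were tested on simulated data. Depth is not given in the sources used here for the PDGFRα library, and no interval could be set on a level. Columns of per-sample values without a sample numbered 0, so none was excluded.

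Genes named were the defining markers, the 25 highest and 25 lowest ratios at 10 FPKM or more, the 15 most abundant genes of the cells, and members of 43 gene lists, of which some are not reported here. The members and lists were chosen with earlier results of these data known. Positions are those of GENCODE M1 on mm9. Promoter windows are RefSeq's on GRCm38.p6, matched by symbol, and were used for letters only. Alternatives changed the cutoff, pseudocount, filter, scaling, isoforms and fold threshold 1 at a time.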

Additional observations from a re-analysis of the deposited data

Results flagged for a closer look

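The jejunum has its own pair, a library labelled PDGFRα cells and SM tissue, in a separately normalized table. The sign of the ratio was looked up there for the 25 genes with the highest colonic ratios and for Pdgfra, Kcnn3 and Cacna1g. For 4 of these genes the ratio to tissue had the opposite sign. The other genes that were higher in colonic PDGFRα cells were not looked up. Pdgfra, by whose reporter the cells were sorted, stood at 34.0 FPKM in the library labelled jejunal PDGFRα cells and 57.0 FPKM in jejunal SM tissue (log2 ratio -0.73), against a colonic log2 ratio of 2.25. Kcnn3 stood at 21.2 FPKM in that library and 23.6 FPKM in jejunal tissue (log2 ratio -0.14), against a colonic ratio of 3.27. Egr1 and Fos, genes of the early response to stimulation, had jejunal log2 ratios of -0.26 and -0.88, against colonic ratios of 4.09 and 3.79. The difference between the regions was not tested, since each had 1 library a side.

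In the library labelled jejunal PDGFRα cells, Myh11 of SMCs stood at 1677 FPKM, against 3370.4 FPKM in jejunal tissue, and Kit of ICC at 36.7 FPKM, against 29.4 FPKM. Of the 25 genes with the highest colonic ratios, 23 were nevertheless above jejunal tissue in it and 10 of them 4-fold, with a median log2 ratio of 1.70. Of all 12820 genes compared in that pair, 48.6% were above jejunal tissue and 0.913% were 4-fold higher. Spon2 was at 301.1 FPKM in that library and 37.0 FPKM in jejunal tissue.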

How the results depend on the processing

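The counts of genes 4-fold higher (270) and 4-fold lower (803) in PDGFRα cells and the share within 2-fold (73.1%) rest on settings as follows. A pseudocount of 0.1 gave 1717 lower genes and a share of 66.3%, and one of 0.025 gave 415 higher genes, 1797 lower genes and a share of 65.8%; a smaller pseudocount raises the ratios of genes with low FPKM by construction. Rescaling to TPM gave 1478 lower genes and a share of 66.8%. The share was 64.9% with isoforms under 1 FPKM set to 0, 79.2% with no filter on low genes and 71.7% among genes at 10 FPKM or more. A threshold of 2-fold gave 1169 higher and 2322 lower genes, and one of 8-fold gave 63 higher and 199 lower genes. Scaling by median ratios moved the median of all genes by 0.16 (TPM by -0.17) and gave 332 higher and 692 lower genes. The higher genes then made up 32.4% of those past 4-fold, beside 25.2% as reported, 17.8% after rescaling to TPM, and 18.97% and 18.8% with the smaller pseudocounts.

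Of 319 listed or named genes past 4-fold, 253 stayed past it on the same side in every setting that gave a value, and none of these 319 genes changed sign. Medians of lists were less stable. Of 42 list medians, 7 changed sign among genes at 10 FPKM or more, 3 after rescaling to TPM and 1 under median ratio scaling. With isoforms under 1 FPKM set to 0, with no filter and with annotated isoforms alone, 2 did so in each setting. Summing annotated isoforms alone ended 51 of 286 calls, among them Adra1a, Atp5j, Bmp1, Bmp2, C1ra, Cald1, Chrm3, Dpp4, Epha3, Fgfr2, Mylk, Notum, Pparg, Ramp1, Rspo1, S1pr2, S1pr3 and Top2a, and median ratio scaling ended 23 of 319, all of lower genes near the threshold, while TPM ended those of Ltbp3 and Igfbp7 and setting isoforms under 1 FPKM to 0 those of Kcnq5, Galr1, Kcnb2 and Ebf3. No paired analysis was possible because each condition has 1 library. Without replicates, and without depth for the PDGFRα library, no ratio carries an error, and mouse line, sorting and cell mixture cannot be told apart.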

Other observations

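Axon guidance and adhesion genes held 3 of 54 genes (5.56%) 4-fold higher in PDGFRα cells and 17 of 54 (31.5%) lower. Over all genes the shares were 2.08% and 6.18%. Robo2 and Epha3, guidance receptors, stood at 69.0 and 19.9 FPKM in PDGFRα cells and at 11.96 and 3.27 FPKM in SM tissue (Epha3 at a log2 ratio of 1.97 over annotated isoforms alone), and the adhesion gene Icam1 at 39.8 FPKM in the cells and 5.05 FPKM in the tissue. Epha7, another guidance receptor, stood at 1.23 FPKM in the cells and 39.0 FPKM in the tissue, and the semaphorin Sema3c at 4.36 FPKM in the cells and 40.8 FPKM in the tissue. Among 14 genes of lipid mediator synthesis, Ptgis, which makes prostacyclin, stood at 172 FPKM in the cells and 42.5 FPKM in the tissue, just under 4-fold, whereas the cyclooxygenase gene Ptgs1 stood at 1.75 FPKM in the cells and 21.9 FPKM in the tissue. None of the 12 hedgehog pathway genes compared was 4-fold higher, and Foxf2 and Cdon were 4-fold lower, Cdon with a log2 ratio of -1.93 under median ratio scaling.

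Mucosal PDGFRα cells, set against whole mucosa in a separately normalized table, held part of the leading genes above the mucosal level. Of the 25 genes with the highest ratios in the colonic muscle, 21 were above mucosa in the mucosal cells and 11 of them 4-fold, beside 44.1% above mucosa and 5.50% past 4-fold among all 12840 genes compared in that pair. Adcyap1r1 stood at 0.460 FPKM in mucosal PDGFRα cells and 0.788 FPKM in mucosa, and Notum at 0.0370 FPKM in the cells and 0.119 FPKM in mucosa. Kcnn3 stood at 6.65 FPKM in mucosal PDGFRα cells and 0.588 FPKM in mucosa, and Pdgfra at 228.1 FPKM in the cells and 11.0 FPKM in mucosa. Tables were normalized apart, so levels between them are not compared by a ratio.

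Hprt, often used to normalize PCR assays, was the sole gene of 18 ubiquitous genes past 4-fold, on the lower side (5.56%, near the 6.18% of all genes). It stood at 24.1 FPKM in PDGFRα cells, 109 FPKM in SM tissue, 22.5 FPKM in SMCs and 904 FPKM in ICC. Its log2 ratio of -2.14 became -1.96 under median ratio scaling. The gene Lars2 held 1 form with new junctions of 1803 bases at 916.0 FPKM in PDGFRα cells and 13.2 FPKM in the tissue, and another of 1766 bases at 0.328 FPKM in the cells and 74.4 FPKM in the tissue, while its annotated form stood at 1.82 FPKM in the cells and 3.31 FPKM in the tissue. Lars2 was named after its values were seen.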
